A study of Mus musculus with 12 samples.

Results

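The regions described here are the core promoter regions whose accessibility was listed as different between cells given an LSD1 inhibitor (LSD1i) and cells given the solvent DMSO (Vehicle). They are the rows of the authors' deposited LSD1i table annotated as lying within 1 kb of a transcript start, 10019 of the 21247 rows. Of these, 378 had a positive log2 fold, LSD1i minus Vehicle, and are called opened, and 9641 had a negative one and are called closed. Because the authors' deposited table lists only regions past an FDR of 0.05, the folds between LSD1i and Vehicle selected the regions and are given as a description, with no test.

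Open chromatin was measured by ATAC-seq, in which the Tn5 transposase cuts accessible DNA of nuclei and attaches sequencing adapters to it, in granulocyte-monocyte progenitors of C57BL6 mouse bone marrow. The cells carry ER-HOXA9, the leukaemia-associated factor HOXA9 joined to the estrogen receptor. There were 12 libraries, in 6 groups of 2 labelled as biological replicates. LSD1i cells received the LSD1 inhibitor GSK-LSD1 at 200 nM for 2 days. Combo cells received the same dose of GSK-LSD1 with 5 uM mercaptopurine and 5 uM cerulenin for 2 days. The 6MP group received 5 uM mercaptopurine, a purine analogue, and the CER group 5 uM cerulenin, a fatty acid synthase inhibitor, each alone for 2 days. Vehicle cells received DMSO for 2 days, and Day0 cells were sampled untreated at the start. All groups, treated or not, were cultured with stem cell factor and beta-estradiol, the ligand of the estrogen receptor part of the fusion. The labels do not say whether the cells derive from 1 clone or which promoter drives the fusion.

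A promoter is the DNA around a transcription start where the general transcription machinery assembles. Most promoters of broadly expressed genes in mammals lie in CpG islands and are open in nearly every cell type, while many promoters of cell-type-specific genes hold few CpGs and open with differentiation. LSD1, encoded by Kdm1a, removes methyl groups from lysine 4 of histone H3 and works with the CoREST scaffold and histone deacetylases. In blood progenitors it is brought to DNA by the repressors GFI1 and GFI1B, which hold genes of later myeloid stages in check.

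Promoter sequences of 6 regions are given as examples. All come from RefSeq (GRCm38.p6), run 5′ to 3′ on the gene's strand from 250 bases before to 50 bases after the start, lie inside the listed region, and have each CpG in capitals. The opened ones are those of Mmp8, the collagenase of neutrophil granules (chr9:7558179-7558478, plus strand), Ifi207, an interferon-inducible member of the PYHIN family (chr1:173741760-173742059, minus strand), and Mgst1, a membrane-bound glutathione transferase (chr6:138140277-138140576, plus strand).
Mmp8: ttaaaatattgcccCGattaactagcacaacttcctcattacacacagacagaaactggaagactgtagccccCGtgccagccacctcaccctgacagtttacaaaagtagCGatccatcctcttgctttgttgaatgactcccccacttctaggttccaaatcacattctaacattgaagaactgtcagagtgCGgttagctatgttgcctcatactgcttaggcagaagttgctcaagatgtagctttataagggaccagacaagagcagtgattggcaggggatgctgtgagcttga
Ifi207: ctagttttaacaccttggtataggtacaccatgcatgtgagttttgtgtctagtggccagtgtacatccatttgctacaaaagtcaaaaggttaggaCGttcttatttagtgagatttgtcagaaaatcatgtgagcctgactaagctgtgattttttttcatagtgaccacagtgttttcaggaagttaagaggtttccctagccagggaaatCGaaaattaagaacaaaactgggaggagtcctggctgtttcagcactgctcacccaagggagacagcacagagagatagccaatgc
Mgst1: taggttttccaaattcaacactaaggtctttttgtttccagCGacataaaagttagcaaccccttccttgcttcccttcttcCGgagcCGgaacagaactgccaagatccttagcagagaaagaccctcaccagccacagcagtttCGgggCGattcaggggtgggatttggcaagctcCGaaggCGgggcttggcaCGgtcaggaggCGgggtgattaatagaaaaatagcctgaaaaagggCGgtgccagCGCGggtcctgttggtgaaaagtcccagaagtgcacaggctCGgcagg
The closed ones are those of Polr2f, a subunit shared by the nuclear RNA polymerases (chr15:79141075-79141374, plus strand), Chac1, an enzyme that degrades glutathione (chr2:119350992-119351291, plus strand), and Rnase11, a member of the ribonuclease A family (chr14:51050114-51050413, minus strand).
Polr2f: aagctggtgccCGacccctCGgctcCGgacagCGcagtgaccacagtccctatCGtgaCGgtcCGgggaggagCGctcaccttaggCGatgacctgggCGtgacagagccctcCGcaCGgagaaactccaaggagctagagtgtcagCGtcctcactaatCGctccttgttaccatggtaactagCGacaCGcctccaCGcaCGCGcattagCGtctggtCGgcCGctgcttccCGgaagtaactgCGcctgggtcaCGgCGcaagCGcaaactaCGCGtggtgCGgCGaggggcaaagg
Chac1: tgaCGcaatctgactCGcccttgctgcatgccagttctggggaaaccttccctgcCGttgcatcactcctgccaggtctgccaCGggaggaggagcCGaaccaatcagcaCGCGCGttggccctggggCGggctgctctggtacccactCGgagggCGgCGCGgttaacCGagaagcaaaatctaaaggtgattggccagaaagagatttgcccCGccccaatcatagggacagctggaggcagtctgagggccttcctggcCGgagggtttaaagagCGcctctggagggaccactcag
Rnase11: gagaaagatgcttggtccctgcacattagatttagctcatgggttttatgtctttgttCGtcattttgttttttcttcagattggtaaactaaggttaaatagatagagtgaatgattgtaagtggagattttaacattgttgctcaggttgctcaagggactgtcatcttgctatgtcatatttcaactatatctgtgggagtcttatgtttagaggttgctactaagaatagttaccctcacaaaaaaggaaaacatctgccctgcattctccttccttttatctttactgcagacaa
The Polr2f window held 31 CpGs and the Chac1 window 17. The Mmp8 window held 4, the Ifi207 window 2 and the Mgst1 window 13. Rnase11 held 1, so a closed promoter can also be poor in CpG.

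The cells carried the markers of their label: 8 of the 9 markers of granulocyte-monocyte progenitors had a called peak at the RefSeq promoter in all 12 libraries, and that of Elane, a neutrophil elastase, had none in any. Peaks stood at 5 to 7 of 12 erythroid and megakaryocyte promoters per library, 3 to 6 of 14 lymphoid ones, 2 to 3 of 8 of mast cells, basophils and eosinophils, and 0 of 6 stromal and endothelial ones. The libraries held 42651 to 56398 called peaks, and the median fragment pileup at a summit was 50 to 75. The median ratio of summit to background in regions called in all libraries was 28.5 and 31.9 in LSD1i, 35.9 and 42.7 in Combo, 16.9 and 35.4 in 6MP, 23.0 and 32.6 in CER, 33.1 and 34.1 in Vehicle, and 28.3 and 29.9 in Day0. It was thus lowest in 6MP replicate 1 and highest in the Combo libraries; its part in the results on Combo was not tested, and values without each library are given beside them.

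The opened core promoters were few, weak and moved by larger folds. In the authors' deposited table they made up 10.7% of the 3518 opened regions of all classes, and the closed ones 54.4% of the 17729 closed regions. By the ranks of its p-values and FDRs the authors' test covered 51616 regions, of which 6.82% were listed as opened and 34.3% as closed. The opened folds in the authors' deposited table had a median of 0.81 on the log2 scale (0.25 to 4.26), and 119 of 378 (31.5%) reached 1. The closed folds in the authors' deposited table had a median of -0.44 (-2.03 to -0.14), and 102 of 9641 (1.06%) reached -1. The median log2 level of the opened regions in the authors' deposited table was 8.26 in LSD1i and 7.38 in Vehicle, and that of the closed regions 10.83 in LSD1i and 11.28 in Vehicle. Closed core promoters thus had a higher level in Vehicle than opened ones. In cells measured in bulk, a change in the share of cells with an open promoter and a change in how open it is in each cell cannot be told apart. At the 1 kb limit, L1td1 and Rabgef1 stood just inside at 999 bases with folds of 0.62 and 0.56 in the authors' deposited table, and Gm11470 at 998 bases with -0.51. Just outside it, at 1004 bases, the authors' deposited table gave 0.32 for Frmd4b, -0.67 for Bst2 and -0.53 for Tmem132a.

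**Figure D1:**
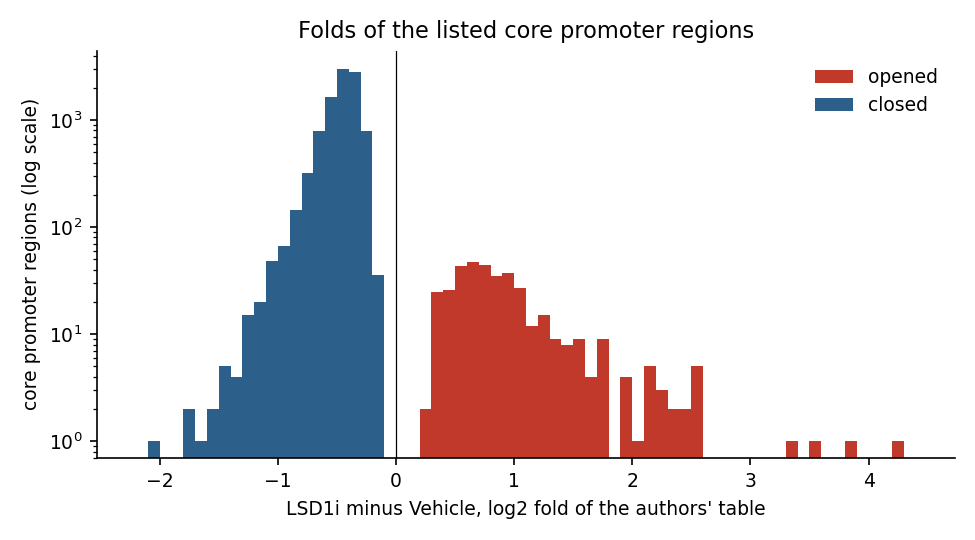
Histogram of the log2 folds, LSD1i minus Vehicle, of the 378 opened and 9641 closed core promoter regions in the authors' deposited table, with the number of regions per bin of 0.1 on a log axis. The closed folds crowd near their median of -0.44, and the opened folds run out to 4.26.

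Whether peaks were called at these regions could be read in every library. Opened regions held a called peak in all 378 cases in both LSD1i libraries, and in 355 and 356 in the Combo libraries. The count was 196 and 227 in 6MP, 242 and 203 in CER, 243 and 258 in Vehicle, and 250 and 209 in Day0. The counts in LSD1i and Vehicle, whose folds chose the regions, are a description only. The counts in Combo lay above all those in 6MP, CER and Day0. Combo, 6MP, CER and Day0 took no part in the LSD1i table, and over these the mean share in Combo exceeded that in the other 3 groups by 35.5 percentage points. The Combo libraries also held more called peaks (55713 and 55630) than those of 6MP, CER and Day0 (42651 to 53105). The share of all joined regions called per library was not computed, and the part of peak number in the gap was not tested. Closed regions held a peak in 9455 to 9637 of 9641 cases in every library, and the groups overlapped.

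**Figure D2:**
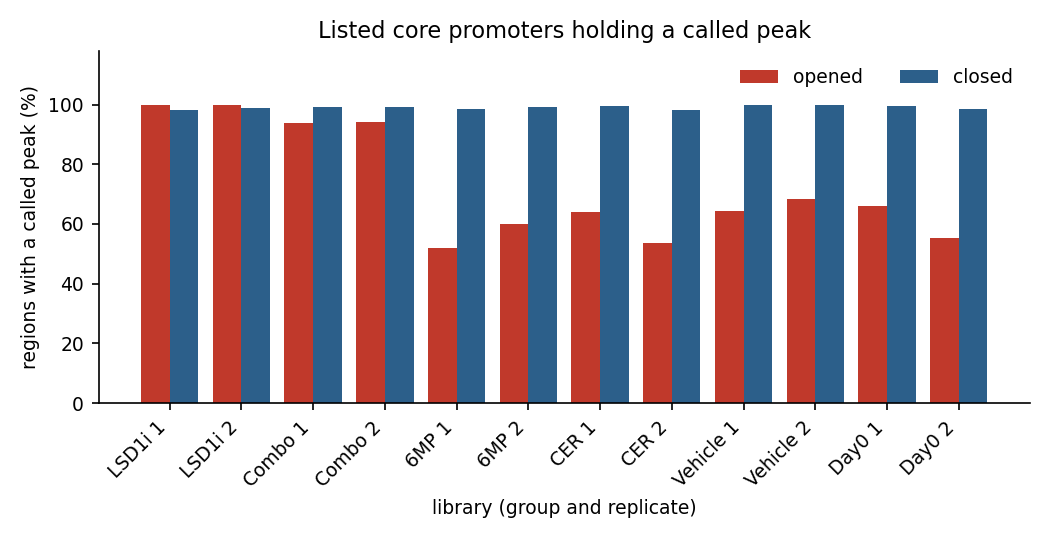
Percent of the 378 opened and 9641 closed core promoter regions that overlapped a called peak by at least 1 base, for each library (group and replicate). Opened regions stand at 93.9% or more in the LSD1i and Combo libraries and at 68.3% or less in the other 8, while closed regions stand at 98.1% or more in all 12.

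A peak was called in all 12 libraries at 154 opened and 9308 closed regions. At 80 opened regions (21.2%) no peak was called in any of the 8 libraries without the inhibitor. Of these 80, 57 had a peak in both Combo libraries, 14 in 1 and 9 in neither. No closed region lacked a peak in all 8. The Vehicle libraries among the 8 helped to choose the regions, and the same share over all joined regions was not computed.

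C1qtnf3, a secreted protein of the C1q and TNF-related family, had the largest opened fold. Its level in the authors' deposited table for LSD1i was 10.80 in LSD1i and 6.54 in Vehicle, a fold of 4.26. The authors' deposited table for Combo gave 11.07 in Combo and a fold of 4.63. Summit signal, the log2 of the fragment pileup over the library's background, centred on the regions called in every library, was 1.33 and 1.37 in LSD1i and 1.40 and 1.18 in Combo at C1qtnf3. It was -2.38 in 1 6MP library, -2.27 in 1 Vehicle library and -2.37 in 1 Day0 library, with no peak in the other 5. The opened region of C1qtnf3 (chr15:10952928-10954068, mm10) lay 571 bases downstream of the annotated start.

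Genes of immune cells were among those with a peak in few or no libraries without the inhibitor. Ifi207 had 8.67 in LSD1i and 6.08 in Vehicle in the authors' deposited table for LSD1i, and 8.84 in Combo in that for Combo. Its summit signals were -1.08 and -0.93 in LSD1i and -0.80 and -0.80 in Combo, with no peak in the other 8 libraries. Bank1, a scaffold of B-cell receptor signalling, showed -1.08 and -1.17 in LSD1i and -1.90 and -1.66 in Combo, and again no peak elsewhere. Siglec1, the macrophage adhesion receptor sialoadhesin, showed -0.63 and -0.54 in LSD1i, -0.31 and -0.23 in Combo and -2.31 in 1 Day0 library. All 3 regions span an annotated start, and their folds in the authors' deposited table were 2.58, 2.55 and 1.59 for LSD1i and 2.83, 2.53 and 2.24 for Combo. Siglec1 was the only opened gene of the 23 on a monocyte and macrophage list, of which 3 had a closed core promoter.

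Other strongly opened core promoters belonged to genes of varied roles. Prdm2, a histone methyltransferase, had a fold of 2.57 for LSD1i and 3.47 for Combo in the authors' deposited table. Fip1l1, a polyadenylation factor, had 2.42 and 2.38 there. The lincRNAs Gm5086 and Gm47409 had 3.89 and 3.55 for LSD1i in the authors' deposited table, and the unclassified transcript Gm37908 had 3.32. None of these 5 had a peak in any library without the inhibitor. Tnr, an extracellular matrix protein of the nervous system (2.45 in the authors' deposited table), and 1700067P10Rik (2.51) were not listed for Combo. Tnr had a peak in the LSD1i libraries alone, and 1700067P10Rik in these and in 1 Combo library.

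Of genes on 25 lists of pathways and cell types, those with an opened core promoter were Mmp8, Siglec1, Gfi1b, Kit, Ccnd1 and Kdm2b. For comparison, 221 of all 21900 protein-coding RefSeq genes (1.01%) had an opened core promoter under the same symbol. The share over the lists was not computed, and nothing is read from their number. Gfi1b itself had summit signals of 1.35 and 1.22 in LSD1i and 1.34 and 1.30 in Combo, against 0.93 and 1.19 in 6MP, 1.02 and 1.25 in CER, 0.92 and 0.87 in Vehicle and 1.05 and 0.79 in Day0. Ccnd1, the G1 cyclin D1, had 0.24 and 0.07 in LSD1i and 0.15 and 0.09 in Combo, against 0.02 and -0.34 in 6MP, -0.14 and -0.12 in CER, -0.31 and -0.27 in Vehicle and -0.09 and -0.08 in Day0. At Ccnd1 the inhibitor libraries were above all others by small steps, at Gfi1b 1 of them lay below 1 CER library, and neither gene passed the test on Combo described next (log2 difference 0.22 ± 0.13 SE, limma adjusted p = 0.278 for Gfi1b, and 0.26 ± 0.14, limma adjusted p = 0.25 for Ccnd1).

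The comparison of Combo with 6MP and CER asks how these promoters stood with and without the inhibitor in libraries that did not choose them. Combo differs from each single drug by the inhibitor and by the other metabolic drug, whose parts cannot be told apart here. Summit signal was fitted with limma over Day0, 6MP, CER and Combo on the 33916 joined regions called in all 8 libraries, and the difference is Combo minus the mean of 6MP and CER. In all regions, 1753 (5.17%) were higher and 2128 (6.27%) lower at a Benjamini-Hochberg adjusted p of 0.05, with a median log2 difference of -0.12, and 8688 had an unadjusted p below 0.05. The opened members fill 375 joined regions, of which 159 could be tested; the others lacked a peak in at least 1 of the 8 libraries. Of the 159, 100 were higher and 0 lower (126 at an unadjusted p below 0.05), with a median of 0.65. Without Combo replicate 1 the higher count was 54, without Combo replicate 2 it was 64, and no other left-out library moved it by more than 1.5 times. Both Combo libraries stood above all 4 of 6MP and CER at 129 of the 159 regions (81.1%) and at 10.5% of all regions tested.

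Core promoters with a RefSeq start and no row in the LSD1i table gave 66 of 2625 (2.51%) higher and 82 (3.12%) lower, with a median of -0.07. Opened regions of the other annotation classes, mostly away from starts, gave 752 higher of 1119, with a median of 0.72. The medians of opened regions were thus close at starts and elsewhere, and their difference was not tested. With a fold of 1 or more in the LSD1i table, 20 of 21 testable opened core promoters were higher, and below that fold 80 of 138.

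**Figure D3:**
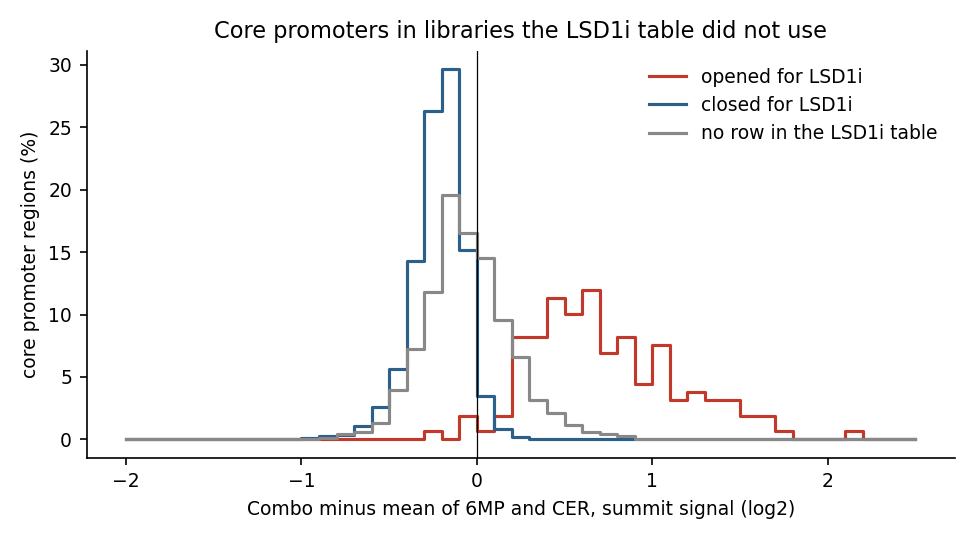
Distribution of the log2 difference in summit signal, Combo minus the mean of 6MP and CER, for core promoter regions opened for LSD1i (159), closed for LSD1i (9316) and with no row in the LSD1i table (2625), as percent of each set per bin of 0.1. Medians are 0.65, -0.20 and -0.07; scaled by depth, the first 2 are 1.26 and 0.40, with 0.49 for all regions tested.

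Epha2, a receptor tyrosine kinase for ephrins, had the highest difference of the opened members. Its summit signal was 1.40 and 1.19 in LSD1i, 1.14 and 0.97 in Combo, -0.59 and -0.89 in 6MP, -1.38 and -1.62 in CER, -0.85 and -0.94 in Vehicle and -0.95 and -1.28 in Day0. The 4 libraries with the inhibitor stood well apart from the other 8, and Combo exceeded 6MP and CER by 2.17 ± 0.17 (SE; limma adjusted p = 2.87e-14). The Epha2 region (chr4:141299147-141300633, mm10) ends 607 bases upstream of the start.

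Mmp8, the only opened gene of the mature neutrophil list of 24, had 0.76 and 0.83 in LSD1i, 1.29 and 1.02 in Combo, -0.62 and -0.68 in 6MP, -0.12 and -0.29 in CER, -0.66 and -0.61 in Vehicle and -0.50 and -0.58 in Day0. It rose by 1.57 ± 0.14 in Combo (SE; limma adjusted p = 2.27e-12), and the libraries with the inhibitor did not overlap those without it. Mgst1 had -0.48 and -0.56 in LSD1i, 0.02 and 0.06 in Combo, -1.62 and -1.89 in 6MP, -1.77 and -1.62 in CER, -1.97 and -1.96 in Vehicle and -1.58 and -1.94 in Day0. It rose by 1.76 ± 0.22 (SE; limma adjusted p = 3.1e-08). At both genes the Combo libraries were also above the LSD1i libraries, a difference that was not tested.

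Cdc42bpa, a kinase acting below the small GTPase CDC42, had -0.08 and -0.06 in LSD1i, 0.10 and 0.29 in Combo, -1.08 and -2.06 in 6MP, -1.35 and -1.57 in CER, -0.99 and -1.96 in Vehicle and -1.20 and -1.24 in Day0. Its 6MP and Vehicle replicates differed by about as much as 1 log2 unit, yet none reached the inhibitor libraries (Combo difference 1.70 ± 0.21 SE, limma adjusted p = 3.1e-08). Amotl1, which encodes an angiomotin-like protein of cell junctions, had 1.15 and 1.19 in LSD1i and 1.10 and 1.06 in Combo, against -0.21 and -0.55 in 6MP and -0.80 and -0.15 in CER (1.50 ± 0.16 SE, limma adjusted p = 5.28e-10). Mrgpra6, a Mas-related G-protein-coupled receptor, had -0.69 and -0.30 in LSD1i and -0.21 and 0.02 in Combo, against -1.08 and -1.84 in 6MP and -1.95 and -1.62 in CER (1.52 ± 0.23 SE, limma adjusted p = 3.19e-06). Nipsnap3a and the antisense transcript Gm15991 completed the 8 highest, at 1.62 ± 0.23 and 1.61 ± 0.26 (SE; limma adjusted p = 7.67e-07 and 1.25e-05).

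**Figure D4:**
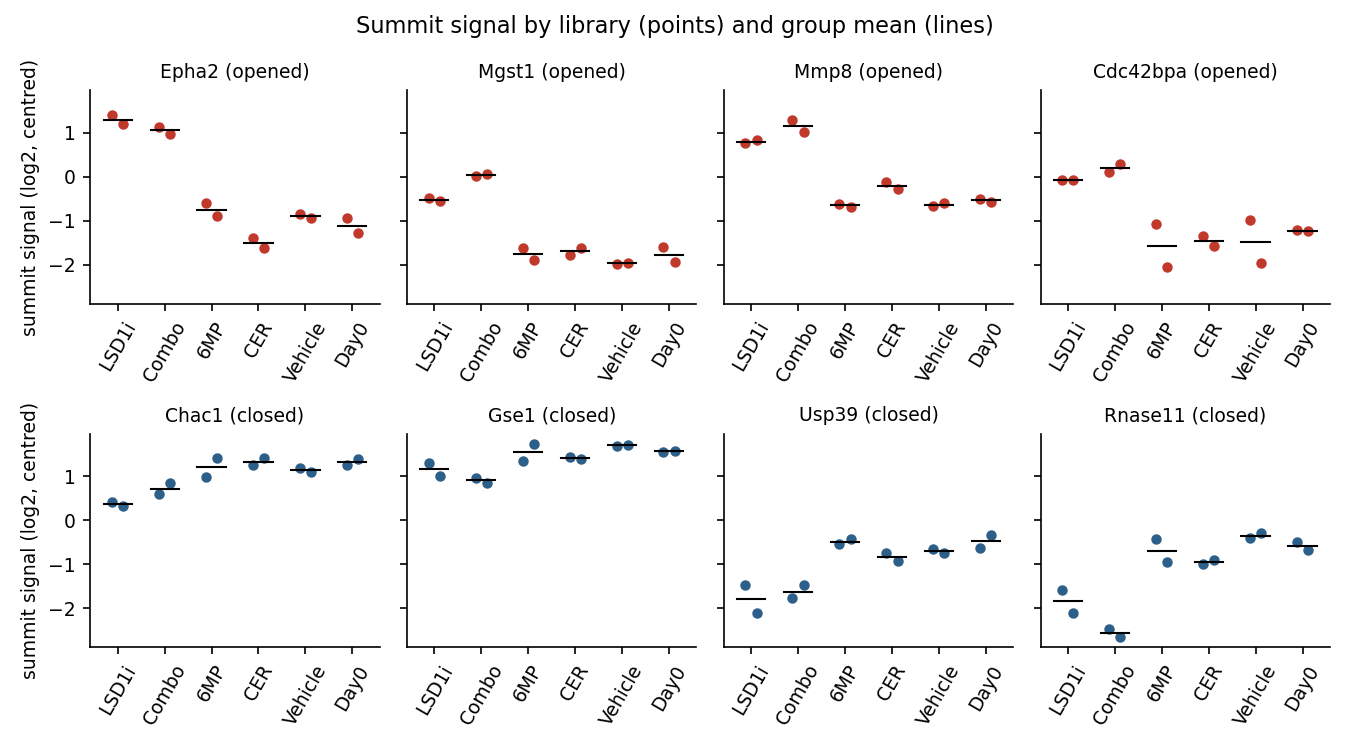
Summit signal (log2 of pileup over background, centred) in each library for 4 opened and 4 closed core promoters, with points for the 2 replicates and lines for group means. At Epha2, Mgst1, Mmp8 and Cdc42bpa the LSD1i and Combo points lie above all others, and at Chac1, Gse1, Usp39 and Rnase11 below all others; the differences of Chac1 and Gse1 in Combo turn to 0.05 and 0.03 when scaled by depth.

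A group of 22 opened genes with roles in phagocytes and innate immunity was picked after their values were seen, and is described only. Of these, 12 could be tested in Combo against 6MP and CER, 7 were higher and 0 lower, near the share of all testable opened core promoters (100 of 159, 62.9%), so the count shows nothing particular to these genes. The 7 were Tarm1, an activating receptor of neutrophils (1.40 ± 0.16 SE), Ifi204, a PYHIN relative of Ifi207 (1.22 ± 0.26), P2ry12, P2ry6 and P2rx7, receptors for extracellular nucleotides (1.19 ± 0.25, 0.66 ± 0.14 and 0.78 ± 0.13), Cxcl2, a chemokine that attracts neutrophils (0.94 ± 0.13), and Clec4a2, a C-type lectin receptor (0.88 ± 0.20). Limma adjusted p-values of these 7 lay between 4.11e-09 and 0.00188. Cxcl2 had 1.09 and 1.12 in LSD1i, 1.64 and 1.74 in Combo, 0.41 and 0.79 in 6MP, 0.88 and 0.89 in CER, 0.61 and 0.61 in Vehicle and 1.09 and 0.85 in Day0. Its Combo libraries stood above the rest, and its LSD1i libraries lay at the level of 1 Day0 library. Ccr1, a chemokine receptor, had a difference of 0.55 ± 0.20 (limma adjusted p = 0.062), and Nos2, the inducible nitric oxide synthase, -0.29 ± 0.28 (limma adjusted p = 0.547). Mmp12, the macrophage elastase, could not be tested: it had -1.77 and -1.43 in LSD1i and -0.80 and -0.82 in Combo, with no peak in the other 8 libraries.

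The Combo table of the authors shares its Vehicle libraries with the LSD1i table, so their folds are set side by side without a test. In the authors' deposited table for Combo, 297 of the 378 opened core promoters were listed, all as opened, and 155 of the 9641 closed ones (1.61%), 154 as closed. The share of all regions listed for Combo was not computed, so nothing particular to core promoters is read from these counts. Among the 297, the median fold in the authors' deposited tables was 1.17 for Combo and 0.83 for LSD1i, and the Combo fold was larger in 263 and smaller in 32. The scaling of neither table is given, and its part in this difference was not tested. Among the 155, the medians in the authors' deposited tables were -0.72 for Combo and -0.83 for LSD1i. The exception among the closed was Lcn2, the neutrophil granule protein lipocalin 2, at -0.52 for LSD1i and 0.56 for Combo in the authors' deposited tables. Lcn2 had summit signals of -1.65 and -1.45 in LSD1i, -0.83 and -0.71 in Combo, -0.72 and -0.89 in 6MP, -0.62 and -0.83 in CER, -1.15 and -1.51 in Vehicle and -0.82 and -0.43 in Day0. At Lcn2 the Combo libraries thus overlapped 6MP, CER and Day0 (Combo difference from 6MP and CER -0.01 ± 0.18 SE, limma adjusted p = 0.972), and 1 LSD1i library lay within the range of Vehicle.

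Closed core promoters shifted little each. Their median summit signal was 1.40 and 1.28 in LSD1i and 1.37 and 1.38 in Combo, against 1.33 and 1.69 in 6MP, 1.62 and 1.69 in CER, 1.60 and 1.49 in Vehicle and 1.60 and 1.54 in Day0 (9285 regions called in all 12). The libraries with the inhibitor lay below those without it, except 6MP replicate 1. For the 155 opened regions called in all 12 the medians were -0.08 and -0.18 in LSD1i and -0.11 and -0.16 in Combo, and between -1.18 and -0.82 in the other 8. Opened core promoters with the inhibitor therefore still lay below the closed ones.

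In Combo against 6MP and CER, 886 of the 9316 testable closed core promoters (9.51%) were lower, beside 6.27% of all regions tested, and 2 were higher, with a median of -0.20 (2334 at an unadjusted p below 0.05). The counts depended on single libraries and on the scaling. The lower count was 5846 without 6MP replicate 1, 90 without Combo replicate 1, 319 without Combo replicate 2, 534 without CER replicate 1 and 546 without CER replicate 2. Scaled by depth alone, without centring, the median of all regions moved to 0.49 and that of the closed ones to 0.40, with 1 lower and 1 higher, so the closed stood 0.09 below all regions under both scalings and their direction below 0 holds only after centring. Centred by intensity, which removes a trend with mean signal, the closed median was -0.06 beside -0.02 for all regions, with 606 lower and 49 higher. The opened ones had 89 higher by depth and 112 by intensity, and 0 lower under both. Both Combo libraries stood below all 4 of 6MP and CER at 2410 closed regions (25.9%), beside 18.5% of all regions.

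Strength differed between the sets, and the regions tested were therefore also split into 10 classes of equal size by mean signal. From the weakest class to the strongest, the median difference of closed core promoters went through -0.48, -0.33, -0.35, -0.32, -0.29, -0.26, -0.24, -0.22, -0.20 and -0.17. Core promoters with no row in the LSD1i table lay between -0.12 and 0.02 in the same classes. All regions tested, the closed ones included, lay between -0.18 and -0.02. In classes 8, 9 and 10, with 1678, 2329 and 2982 closed regions, all regions had -0.16, -0.18 and -0.16. These 3 classes held 3392, 3391 and 3392 regions in all. Closed ones made up much of them, so their median could not lie far from that of all regions. Core promoters with no row in the LSD1i table had -0.09, -0.11 and -0.11 there, and closed ones -0.22, -0.20 and -0.17. Opened core promoters lay between 0.58 and 0.82 in the first 7 classes, which hold 147 of the 159. These 7 classes held 7 to 31 opened regions each, and the order of the 3 sets was the same in all of them. With a fold of -1 or below in the LSD1i table, 30 of 46 testable closed core promoters were lower in Combo.

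The letter at the end of a library's name also split the libraries. Within the names without a letter, 1 Combo library minus 1 of 6MP and 1 of CER gave a median of 0.65 for opened and -0.13 for closed core promoters, beside -0.08 for all regions. Within those ending in R, it gave 0.75 for opened, -0.28 for closed and -0.14 for all. The difference was above 0 at 153 and 157 of the 159 opened regions beside 38.5% and 35.4% of all regions. It was below 0 at 7102 (76.2%) and 8969 (96.3%) of the 9316 closed ones, beside 61.5% and 64.6% of all regions.

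Rnase11 had the lowest difference in Combo of the closed members. Its summit signal was -1.57 and -2.10 in LSD1i, -2.46 and -2.66 in Combo, -0.43 and -0.95 in 6MP, -0.99 and -0.89 in CER, -0.41 and -0.28 in Vehicle and -0.49 and -0.67 in Day0. Combo was lower by 1.75 (difference -1.75 ± 0.21 SE; limma adjusted p = 1.88e-08), the inhibitor libraries stood apart, and the fold in the authors' deposited table was -1.70 for LSD1i and -1.94 for Combo. Acss2, which makes acetyl-CoA from acetate, had the lowest fold, -2.03 for LSD1i and -1.21 for Combo in the authors' deposited table. Acss2 had -2.34 in 1 LSD1i library and no peak in the other, -2.28 and -2.90 in Combo, -1.21 and -1.15 in 6MP, -1.55 and -1.31 in CER, -1.73 and -0.69 in Vehicle and -1.43 and -1.55 in Day0 (Combo difference -1.29 ± 0.25 SE, limma adjusted p = 0.00028).

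A further 5 of the 8 lowest were Flrt1, a cell adhesion protein (-1.15 ± 0.25 SE), Usp43, a deubiquitinase (-1.15 ± 0.29), Lpo, lactoperoxidase (-1.14 ± 0.17), the antisense transcript Gm15543 (-1.05 ± 0.19) and Oas1a, an interferon-induced sensor of double-stranded RNA (-1.03 ± 0.22). Their limma adjusted p-values lay between 1.25e-06 and 0.00561. Lpo had -0.57 and -0.61 in LSD1i, -1.39 and -1.34 in Combo, 0.17 and -0.33 in 6MP, -0.39 and -0.37 in CER, 0.05 and -0.06 in Vehicle and -0.18 and -0.15 in Day0. In summit signal at Lpo, both Combo libraries were lower than those of LSD1i, and LSD1i lower than the other 8. The authors' deposited tables gave Lpo levels of 9.22 in LSD1i and 9.19 in Combo, with folds of -0.64 and -0.59. The difference between Combo and LSD1i was not tested.

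Of the strongest closed folds, Usp39, a splicing factor, had -1.47 and -2.10 in LSD1i, -1.77 and -1.47 in Combo, -0.54 and -0.43 in 6MP, -0.73 and -0.92 in CER, -0.65 and -0.74 in Vehicle and -0.62 and -0.33 in Day0 (Combo difference -0.97 ± 0.19 SE, limma adjusted p = 0.000201). The libraries with the inhibitor did not overlap those without it. Synj2, an inositol phosphatase, and Lhfpl2 had folds of -1.78 and -1.71 in the authors' deposited table for LSD1i, and each lacked a peak in some of the inhibitor libraries. Abcb8, a mitochondrial transporter (-1.52 in the authors' deposited table), had no peak in LSD1i, and Brap, a ubiquitin ligase (-1.48), had peaks in the 2 Vehicle libraries alone. Nfic, a transcription factor, had folds of -1.38 for LSD1i and -1.44 for Combo in the authors' deposited tables. It did not pass in Combo against 6MP and CER (-0.35 ± 0.14 SE, limma adjusted p = 0.0979). That difference is of the joined region, whose highest summit can lie outside the 437 bases listed for Nfic. Mbnl3, a splicing regulator, and the transcripts Gm36979, Gm36975 and Gm37632 had folds between -1.59 and -1.42 in the authors' deposited table and too few peaks to test.

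Trbv5, a T-cell receptor gene segment, and Trps1, a GATA-type repressor, were the closed members that went the other way in Combo, at 0.71 ± 0.23 and 0.37 ± 0.12 (SE; limma adjusted p = 0.0353 and 0.0408). Both were named because they were the exceptions. Neither was called without Combo replicate 1 or without Combo replicate 2, since no closed member was then higher.

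Closed core promoters were spread over the basic machinery of the cell. Genes with at least 1 closed core promoter numbered 24 of 30 for cell cycle and replication, 23 of 30 for the proteasome, 21 of 30 for RNA polymerase II and general factors, 20 of 30 for the spliceosome, 20 of 30 for the respiratory chain and 19 of 30 for cytosolic ribosomal proteins. They were 24 of 30 for histone modifiers and remodellers, 24 of 26 for fatty acid and sterol metabolism, 19 of 28 for purine metabolism, 16 of 17 for the integrated stress response, 15 of 19 for p53 targets and 10 of 17 for the interferon response. Among blood lists they were 21 of 28 for myeloid transcription factors, 9 of 13 for the LSD1 complex, 9 of 24 for progenitor and self-renewal genes, 8 of 22 for innate receptors and signalling, 5 of 9 for genes that define the progenitor, 4 of 10 for primary granules, 3 of 23 for monocytes and macrophages, 1 of 24 for mature neutrophils and 0 of 14 for dendritic cells. Lists of other cell types gave 8 of 16 for erythroid and megakaryocyte genes, 7 of 18 for lymphoid, 2 of 11 for mast cells, basophils and eosinophils and 2 of 10 for stromal and endothelial ones. For comparison, 7962 of all 21900 protein-coding RefSeq genes (36.4%), expressed in these cells or not, had a closed core promoter under the same symbol. Of the 11574 joined regions with a peak and a RefSeq start within 1 kb, 6916 (59.8%) held one, so many of the list counts lie near the share at open promoters.

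In Combo against 6MP and CER, 9.51% of all testable closed core promoters and 6.27% of all regions were lower, and the small counts of the lists are given beside these shares with nothing read from them. After centring, the lower counts were 1 of 27 tested regions for cell cycle, 3 of 23 for the proteasome, 1 of 21 for RNA polymerase II, 1 of 20 for the spliceosome, 2 of 20 for the respiratory chain, 3 of 20 for ribosomal proteins, 3 of 29 for histone modifiers, 3 of 27 for fatty acid and sterol metabolism, 2 of 21 for purine metabolism, 1 of 16 for the stress response, 2 of 15 for p53 targets and 2 of 10 for the interferon response. They were 1 of 24 for myeloid transcription factors, 1 of 12 for the LSD1 complex, 2 of 12 for progenitor genes, 2 of 12 for erythroid and megakaryocyte and 3 of 7 for lymphoid genes, and 0 for the other lists. The median differences ran from -0.30 for RNA polymerase II, over -0.25 for the proteasome and -0.26 for fatty acid and sterol metabolism, to -0.08 for innate receptors and signalling and -0.01 for the 1 mature neutrophil region, beside -0.20 for all closed core promoters. All of these medians and calls are after centring, and scaling by depth adds 0.60 log2 units to each.

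Among named closed genes of these lists, 9 were lower in Combo after centring and lay above 0, at 0.03 to 0.24, when scaled by depth. Chac1 had 0.42 and 0.31 in LSD1i, 0.58 and 0.85 in Combo, 0.98 and 1.42 in 6MP, 1.25 and 1.41 in CER, 1.17 and 1.09 in Vehicle and 1.26 and 1.38 in Day0 (Combo difference -0.55 ± 0.13 SE, limma adjusted p = 0.00333). Gse1, a protein of the CoREST complex that LSD1 works in, had 1.31 and 1.01 in LSD1i, 0.96 and 0.85 in Combo, 1.35 and 1.73 in 6MP, 1.43 and 1.39 in CER, 1.69 and 1.70 in Vehicle and 1.55 and 1.57 in Day0 (-0.58 ± 0.14 SE, limma adjusted p = 0.00249). In both, the inhibitor libraries lay below the others. Polr2f had 0.76 and 0.64 in LSD1i, 0.55 and 0.84 in Combo, 0.78 and 1.24 in 6MP, 1.38 and 1.45 in CER, 1.15 and 0.82 in Vehicle and 1.26 and 1.10 in Day0 (-0.53 ± 0.13 SE, limma adjusted p = 0.00499), and its Combo libraries overlapped those of 6MP and Vehicle.

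The other 6 were Tcf7, the T-cell factor TCF1 (-0.58 ± 0.16 SE), Tfrc, the transferrin receptor (-0.55 ± 0.17), Fas, a death receptor and p53 target (-0.50 ± 0.13), E2f2, a cell cycle factor (-0.47 ± 0.12), Srebf1, a regulator of lipid synthesis (-0.43 ± 0.15), and the proteasome subunit gene Psmd2 (-0.37 ± 0.13). Their limma adjusted p-values lay between 0.00662 and 0.0487. Genes that did not pass included Gata2, a stem and progenitor factor (-0.32 ± 0.13 SE, limma adjusted p = 0.101), Fcgr3, a receptor for immunoglobulin G (-0.32 ± 0.13, limma adjusted p = 0.0851), Rcor1, the CoREST scaffold (-0.23 ± 0.23, limma adjusted p = 0.559), Mpo, myeloperoxidase (-0.30 ± 0.22, limma adjusted p = 0.41), and Dnmt3a, a DNA methyltransferase (-0.01 ± 0.16, limma adjusted p = 0.986). Prtn3, the granule protease proteinase 3, had a fold of -1.04 in the authors' deposited table; it had no peak in LSD1i, 0.53 in 1 Combo library and values between 0.31 and 1.04 in the other 8.

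Both directions could occur in 1 gene: 50 genes had an opened and a closed core promoter region, a median of 29200 bases apart (2031 to 312321). Kit, the receptor of stem cell factor, had a closed region at its start (chr5:75574475-75576328, mm10) and an opened one further on (chr5:75640616-75640997, mm10), 86 bases upstream of another annotated start. In the authors' deposited table the first had a fold of -0.21 (11.96 in LSD1i, 12.17 in Vehicle) and the second 0.74 (6.62 in LSD1i, 5.88 in Vehicle). The second had a peak in the LSD1i and Combo libraries (-2.47 and -1.97 in LSD1i, -2.42 and -2.45 in Combo) and in no other. Opened regions of these genes were the weaker ones, with a median level in Vehicle of 7.51 in the authors' deposited table and 11.29 for the closed ones. A RefSeq start lay within 1 kb of 7 of the 51 opened regions (13.7%) and of 43 of the 60 closed ones (71.7%).

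Examples chosen after their values were seen are Usp25, Pfkfb4, Ube2h, Slc12a7 and Nav2. Usp25, a deubiquitinase, differed in Combo by 1.45 ± 0.20 at its opened region (SE; limma adjusted p = 5.87e-07) and by -0.16 ± 0.18 at its closed one (limma adjusted p = 0.606). Pfkfb4, an enzyme that sets the rate of glycolysis, differed by 1.32 ± 0.20 at the opened region (limma adjusted p = 3.13e-06) and by -0.29 ± 0.19 and -0.21 ± 0.13 at the closed ones. Ube2h, a ubiquitin-conjugating enzyme, gave 1.30 ± 0.20 (limma adjusted p = 5.1e-06) and -0.25 ± 0.14, and Slc12a7, a potassium and chloride cotransporter, 1.06 ± 0.15 (limma adjusted p = 6.26e-07) and -0.04 ± 0.15. Only the opened region passed in each of these 4 genes. In Nav2, a neuron navigator gene, the closed region was lower (-0.83 ± 0.14 SE, limma adjusted p = 1.34e-05) and the opened one could not be tested (fold 1.73 in the authors' deposited table). Kdm2b, a histone demethylase, had 4 closed regions with folds of -0.63 to -0.43 in the authors' deposited table and 1 opened region at 0.58.

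Opened and closed core promoters also differed in features that the fold did not use. Strength differed between the 2 sets as well, and its part in these features was not tested. Closed regions were wider, with medians of 886.5 bases for opened and 1358 for closed regions. An annotated start fell inside 210 opened regions (55.6%) and 8860 closed ones (91.9%). The gene was protein-coding for 61.9% of opened and 92.2% of closed regions, a lincRNA for 12.7% and 2.49%, and a processed pseudogene for 7.94% and 0.73%. A RefSeq start lay within 1 kb of 117 opened (31.0%) and 6948 closed regions (72.1%). Fewer than 1 in 3 opened regions thus stood at a RefSeq start, and their class rests on other annotated transcripts. In Combo the testable opened regions with a RefSeq start and those without gave like medians, 0.62 (33 of 53 higher) and 0.67 (67 of 106 higher).

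RefSeq promoters under the same gene symbol were matched to 102 opened and 6506 closed regions and comprise 100 and 6488 different windows of 300 bases. The median number of CpGs was 5 in opened, 22 in closed and 7 in all 32851 RefSeq promoters. The ratio of observed to expected CpG was 0.6 or more in 19.0% of opened, 78.2% of closed and 35.8% of all promoters. Opened promoters were thus near the general level or below it, and closed ones above it. All RefSeq promoters include those with no peak in these cells, and open promoters with no row in the LSD1i table were not counted apart. Closed regions were also the stronger ones, and the part of strength in the CpG difference was not tested.

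**Figure D5:**
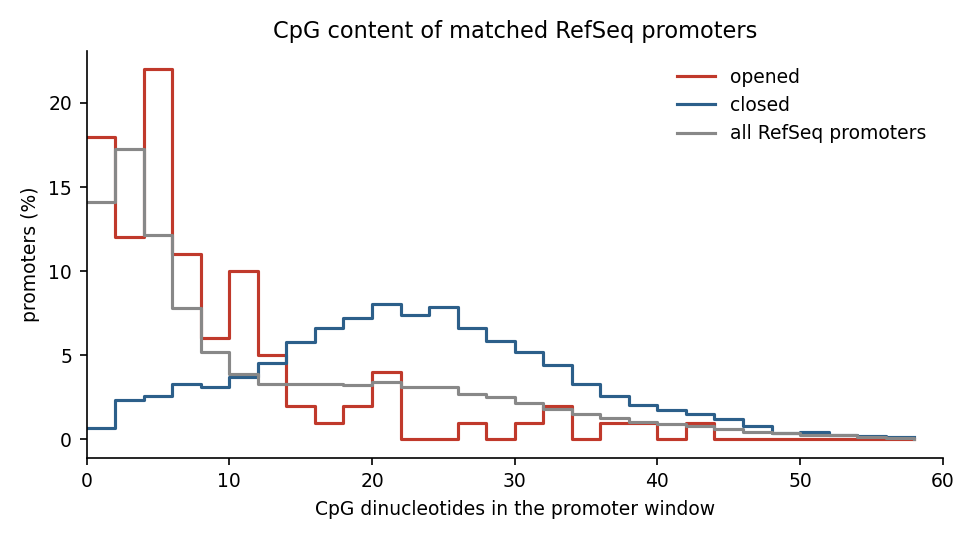
Number of CpG dinucleotides per RefSeq promoter window, as percent of promoters in bins of 2, for promoters of opened regions (100), closed regions (6488) and all RefSeq promoters (32851). Opened promoters and all promoters peak at low counts, with medians of 5 and 7, and closed promoters spread around a median of 22.

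Short motifs were searched as exact letters on both strands of these windows, where N is any base. GGGCGG, the GC box of SP and KLF factors, which contains a CpG, occurred in 32% of opened, 70.6% of closed and 35.7% of all promoters. GAGGAAG, an ETS core of the PU.1 type, occurred in 25% of opened, 13.2% of closed and 13.6% of all promoters, and TGTGGT of RUNX factors in 24%, 12.2% and 16.8% in the same order. AATCNC, the core of GFI1 sites, occurred in 42%, 29.5% and 33.2%, TGANTCA of AP-1 in 11%, 4.59% and 7.81%, and TTGCNNCAA, a pair of C/EBP half-sites, in 5%, 1.50% and 2.08%. The element of interferon regulatory factors, GAAA repeated after any 2 bases, occurred in 7%, 2.67% and 3.44%, AGATAA of GATA factors in 6%, 4.90% and 11.2%, and CCAAT of NFY in 35%, 40.9% and 37.4%. GCATGCGC of NRF1 occurred in 3%, 6.12% and 2.71%, AAGATGG of YY1 in 6%, 7.71% and 6.34%, and TGACGTCA of CREB and ATF factors in 2%, 3.39% and 1.79%. The searches did not remove overlaps between motifs, and with 100 opened promoters each single promoter is 1% of that share. Here too, all promoters include those with no peak, and the part of strength was not tested. Of the windows printed above, all 6 held a GFI1 core, beside 42% of opened and 29.5% of closed promoters. In this the 6 examples do not stand for either set. Mmp8 also held the ETS core, Ifi207 the RUNX, interferon and C/EBP motifs, Mgst1 the GC box, Polr2f the RUNX motif, Chac1 the GC box and CCAAT, and Rnase11 the GATA motif and CCAAT. Ifi207 and Mmp8 held CCAAT as well.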

How the data were processed

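Per the submitters' processing notes, the build was mm10 and the authors used MACS2 2.1.2 and DiffBind, besides Bowtie2, Picard 2.18.26, SAMtools 1.9 and Trimmomatic 0.38; their settings are not given in the sources used here. The levels and folds the authors deposited are on a log2 scale, made from normalised reads by a scaling that is not given, and each deposited region has a p-value and FDR. Each deposited peak list, called per library, holds a score, the summit's fold ratio to its background, and p-value and q-value as −log10.

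The fragment pileup and background of each summit were solved from that fold and p-value, and 100% of summits gave a whole pileup (tolerance 0.001 in −log10 p). Its counting error limits the precision at weak regions. Peaks were joined over the 12 libraries into 73156 regions with bedtools 2.31.1 (overlap of 1 base). The summit signal of a joined region is log2 of its highest pileup over the library's smallest background, centred on the median of regions called in every fitted library, and it can come from a summit outside the listed region. The 160 opened and 9351 closed members tested lie in 159 and 9316 joined regions.

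The test was limma 3.58.1 in R 4.3.3 with a variance trend, two-sided, Benjamini-Hochberg adjusted over all regions, because an exact test of 2 against 4 libraries cannot give a p below 0.133. On simulated regions with a noise SD of 0.222 between libraries, it recovered 4.5% of changes of log2 0.5, 94% of log2 1 and 100% of log2 2. Every simulated region had the same SD, while SEs in the data differed, with 0.13 at P2rx7 and 0.28 at Nos2. These shares therefore need not hold for weak regions. Replicate numbers were not taken to pair the samples. The Day0, 6MP and CER comparison tables were not used here.

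Named genes are the 12 largest opened and 12 most negative closed folds (1 per gene), all list genes with an opened region, the 2 most negative closed folds per list, and the 8 highest and 8 lowest Combo differences in the listed direction, of which some are not reported here. Members, lists, motifs and this rule were chosen with earlier results of these data known.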

Additional observations from a re-analysis of the deposited data

How the results depend on the processing

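At a limma adjusted p of 0.05, 0 opened core promoters were called lower in Combo than in 6MP and CER. This held under each alternative that kept both libraries of every group used. Before any threshold, 155 of the 159 tested had a difference above 0 in the main fit. The counts of higher and lower regions moved more. Scaling by depth left 6 of all regions lower and, of the closed core promoters, 1 lower and 1 higher. It placed 9 named closed genes above 0, Gse1 at 0.028, Chac1 at 0.051, Srebf1 at 0.175, Psmd2 at 0.235, E2f2 at 0.132, Tfrc at 0.052, Fas at 0.108, Polr2f at 0.077 and Tcf7 at 0.025, because no centring is applied. Closed core promoters higher numbered 49 when centred by intensity, 0 with only 6MP, CER and Combo fitted, and 1 with all 12 libraries. With Day0 added to 6MP and CER, 3225 regions and 1361 closed core promoters were lower and 1 closed was higher. Leaving out 1 library at a time gave 677 to 3004 regions higher, 402 to 8808 lower, 54 to 132 opened core promoters higher, 0 to 24 closed higher and 90 to 5846 closed lower, and the cause was not tested. With a replicate block, which the weak correlation of equal numbers (-0.20 to 0.14) does not call for, 1857 regions were higher and 2326 lower, with 102 opened higher and 953 closed lower. Taking all promoter classes gave 751 opened regions. Counting a peak only where it covered 50% of the region widened the gap in opened regions called, Combo minus Day0, 6MP and CER, to 48.0 percentage points. The LSD1i minus Vehicle median of opened core promoters was 0.85 centred and 0.76 scaled by depth. Regions without a peak in some library enter no test, which leaves out 216 of 375 opened joined regions.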
